A study of Mus musculus with 2 samples.

Results

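CTCF binding was examined at the 4 Hox gene clusters of mouse embryonic stem cells (ESCs), through 38 listed Hox genes of the 22228 protein-coding genes tested. Each cluster was taken from its first to its last listed gene, with 100000 bp of flank on either side, and all deposited CTCF peaks with a summit in these regions were listed. They number 34 of the 33788 CTCF peaks of the genome, of which 19 lie inside the clusters and 15 in the flanks. The cells were R1/E ESCs, a mouse line, carrying CTCF with a C-terminal LAP tag, which contains GFP, from a stably integrated bacterial artificial chromosome in addition to the endogenous gene. Chromatin of this line, crosslinked with 1% formaldehyde, was immunoprecipitated with a goat GFP-antibody in 1 library and with goat control IgG in 1 library. Neither has a replicate, so every difference below is between these 2 libraries, and all intervals cover counting error only. No position and strand is repeated among the deposited tags of either library. Without molecular identifiers, tags still cannot be taken as independent molecules, which the intervals do not allow for. The labels call the control both an IgG isotype control and input DNA, and it is taken as an IgG ChIP, as in the study. There were 8391191 CTCF and 7988889 IgG tags, each 35 bp long, with positions on mm9.

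Hox genes encode homeodomain transcription factors that give cells their position along the body axis of the embryo. The genes of a cluster are transcribed from the same strand and are numbered by paralogous group, from group 13 at the 5′ end to group 1 at the 3′ end, so that genes of the same number in different clusters descend from a common ancestor. Low group numbers act toward the head and are switched on early, and high numbers act toward the tail and in the limbs. In ESCs the clusters are held mostly silent by Polycomb proteins. CTCF is a zinc finger protein that binds a long, directional motif, holds chromatin loops together with cohesin and acts as an insulator, and at Hox clusters it is known to separate active from silent genes.

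The motifs that matter most for the comparison between clusters are printed here, each on the strand that matches the consensus, from 5′ to 3′. Capitals mark bases equal to the most frequent base of the CTCF matrix, which was built from 192 sequences and has 19 positions. The matrix consensus and the motif at the summit next to the group 9 gene of each cluster are given first. The motifs between groups 10 and 11 follow, then the Hoxa5 motif and the motif at the peak with the highest MACS score inside a cluster.
Matrix consensus: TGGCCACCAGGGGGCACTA
Hoxa7-Hoxa9, chr6:52171804-52171822, minus strand: attCCAggAGatGGCAgTg
Hoxb9-Hoxb8, chr11:96140259-96140277, plus strand: TGGCCgCtAGatGGCAtcc
Hoxc9-Hoxc8, chr15:102818021-102818039, plus strand: TGaaCgCgAGGtGGCgCTg
Hoxd9-Hoxd8, chr2:74540449-74540467, plus strand: TGGCCACtAGaGaGCgCTg
Hoxa10-Hoxa11, chr6:52190536-52190554, minus strand: ccGCCACgAGatGGCgCac
Hoxd11-Hoxd10, chr2:74524534-74524552, plus strand: caGCCACacGaGGGCgCgc
Hoxa5 start, chr6:52154654-52154672, minus strand: TctCCAgCgGGtGGCgCTc
Hoxd8-Hoxd4, chr2:74553975-74553993, plus strand: TGtCCAggAGGaGGCgCTg

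The clusters held CTCF summits at 3.92 per 100 kb (19 summits, exact 95% Poisson interval 2.36 to 6.12), and their flanks at 1.88 per 100 kb (15 summits, 1.05 to 3.09). The density inside was 2.09 times that of the flanks, with an exact 95% interval of 1.01 to 4.42 whose lower end is close to 1. This ratio pools the 4 clusters and did not hold at Hoxb. The Hoxb flanks held 7 summits on the Hoxb13 side and 3 on the Hoxb1 side, each in 100000 bp. Inside Hoxb there were 8 in 173.9 kb, so the density was not higher inside. On the group 13 side and the low group side, Hoxa had 1 and 0 flank summits, Hoxc 0 and 2, and Hoxd 2 and 0. The density over the genome was 1.27 per 100 kb, below the interval of the clusters and within that of the flanks. Hoxa, on chromosome 6 from 52112350 to 52210874, held 5 summits in 98.5 kb. Hoxb, on chromosome 11 from 96055630 to 96229570, held 8 in 173.9 kb. Hoxc, on chromosome 15 from 102751534 to 102867274, held 3 in 115.7 kb, and Hoxd, on chromosome 2 from 74506367 to 74603200, held 3 in 96.8 kb. Per 100 kb the values were 5.07, 4.60, 2.59 and 3.10, and the exact intervals of the 4 counts, of which the widest runs from 3.45 to 15.8 summits, all overlap.

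**Figure D1:**
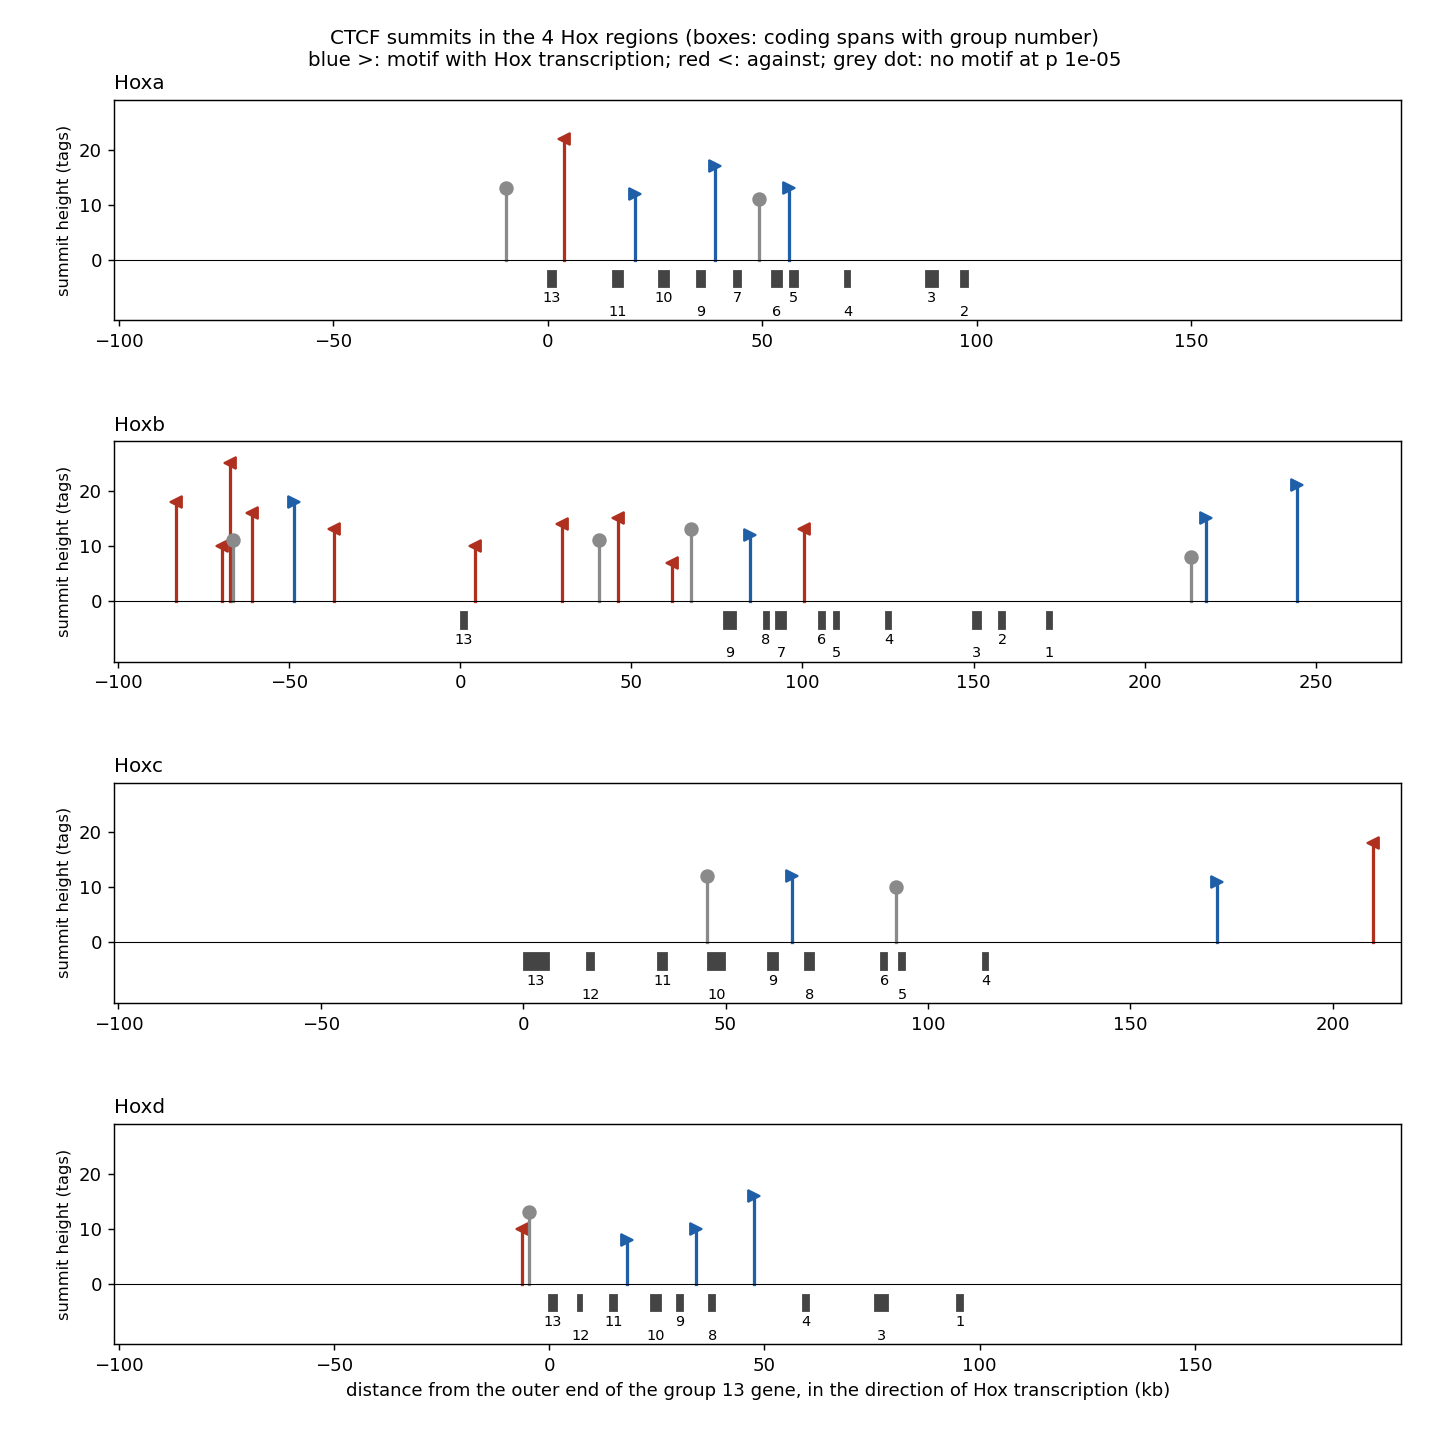
Map of the 4 Hox regions. The x axis is the distance in kb from the outer end of the group 13 gene in the direction of Hox transcription, boxes are coding spans with their group number, and each stem is 1 deposited CTCF summit with its height in tags on the y axis. Arrowheads give motif direction relative to Hox transcription and grey dots summits without a motif at p 1e-05 within 150 bp. The summits inside the clusters all lie on the group 13 side of Hoxa5, Hoxb6, Hoxc5 and Hoxd4.

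In height these sites were ordinary members of the genome-wide list. The MACS score, which is -10 times the log10 of the p-value, had a median of 111 inside the clusters, 131 in the flanks and 117 over all peaks. The summit height, the largest pileup of tags, had a median of 12 tags inside, 13 in the flanks and 13 over all peaks. Inside the clusters 7 of 19 scores and 5 of 19 heights exceeded the genome-wide median, and the best score inside, 271.95 between Hoxd8 and Hoxd4, ranked 2912. Heights are whole numbers with many ties, and 56.4% of all peaks were no higher than the median of 13 tags. The peaks inside the clusters held 484 CTCF and 50 IgG tags. Scaled for depth, the ratio was 9.22 (exact 95% interval 6.88 to 12.6). The flank peaks had a ratio of 10.7 (7.69 to 15.4) and all peaks of the genome 8.73. The peaks were called on the same tags, so these ratios restate the calls and carry no test.

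At Hoxa the 5 summits were spread over the part from group 13 to group 5, 7.08 to 18.8 kb apart. The tallest, 22 tags at position 52207159 between Hoxa11 and Hoxa13, had a score of 186.39, and its peak held 42 CTCF and 7 IgG tags. Hoxa13 and Hoxa11 act in the distal limb and the genital tract. The next summit, between the coding spans of Hoxa10 and Hoxa11 at 52190611 and in a UTR of Hoxa10, had the lowest score of the cluster, 71.52, with 16 CTCF and 2 IgG tags. The summit between Hoxa7 and Hoxa9 at 52171852, in a UTR of Hoxa7, was 17 tags high, with 24 CTCF and 4 IgG tags in its peak. The summit between Hoxa6 and Hoxa7 at 52161649 was 11 tags high, with 23 CTCF and 3 IgG tags. It falls in an intron of the long Hoxa3 record, 1417 bp from the Hoxa3 start, and was the only summit of Hoxa inside the cluster without a motif at p 1e-05. The last, at 52154565, fell in a UTR of Hoxa5 and within the Hoxa3 record, 21 bp from the Hoxa5 start, with 23 CTCF and 2 IgG tags. In all 5 peaks the CTCF library was above the IgG library, and the exact intervals of the 5 ratios overlap.

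The annotated transcripts of Hoxa extend across these sites. The gene records of Hoxa10, Hoxa6 and Hoxa7 start upstream of the transcript with the longest coding sequence, and the summits lie 242, 294 and 1 bp from those record starts. The tags within 1 kb of them were 36 CTCF and 5 IgG at Hoxa10, 35 and 7 at Hoxa6, and 29 and 7 at Hoxa7. All 3 passed the exact binomial test adjusted over all genes (adjusted p = 4.3e-05, 0.00048 and 0.0057), as did 10.1% of all record starts. They are named because a summit called on the same tags is near. The Hoxa3 record start, with 14 CTCF and 5 IgG tags, did not pass (adjusted p = 0.31, same exact test), and that of Hoxa9 held 2 CTCF and 2 IgG tags.

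At Hoxb, 6 of the 8 summits lay in the 75.3 kb between Hoxb13 and Hoxb9, where the cluster has no gene of groups 10 to 12. Hoxb13 is the gene farthest from the others in any of the clusters and acts in the prostate and the tail. The 6 summits, at 96059988, 96085314, 96096182, 96101716, 96117506 and 96123131, had heights of 10, 14, 11, 15, 7 and 13 tags. Their peaks held 12, 25, 20, 35, 14 and 28 CTCF tags against 0, 2, 3, 3, 3 and 3 IgG tags. The count of 0 allows up to 3 tags. The site at 96085314 carried the motif of the smallest p inside a cluster, 1.07e-09, and the site at 96123131 lies in a coding exon of the predicted gene Gm53, 9640 bp upstream of the Hoxb9 start. Of the 6, 4 had a motif, and all 4 pointed against Hox transcription.
The other Hoxb summits stood on either side of Hoxb8 and Hoxb7. The peak at 96140256, between Hoxb9 and Hoxb8, held 29 CTCF and 1 IgG tags (score 182.75). The peak at 96156004, between the coding spans of Hoxb7 and Hoxb6 and in an intron of the Hoxb6 record, held 27 CTCF and 8 IgG tags (score 69.32). The latter had the most IgG tags of any peak in the 4 regions and the lowest ratio, 3.21 (exact 95% interval 1.42 to 8.18).

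At Hoxc the 3 summits were of almost equal score. They lay between Hoxc11 and Hoxc10 (102797033, score 104.13), between Hoxc9 and Hoxc8 (102817978, 111.38) and between Hoxc6 and Hoxc5 (102843749, 105.63). Their peaks held 22, 21 and 23 CTCF tags against 1, 0 and 0 IgG tags. The outer sites stood 194 bp upstream of Hoxc10, which acts in the hindlimb and lumbar region, and 497 bp upstream of Hoxc5. The Hoxc9-Hoxc8 and Hoxc6-Hoxc5 sites lie in an intron of the noncoding Gm20398. Neither of the outer sites had a motif at p 1e-05 within 150 bp of the summit, and the Hoxc5 site had none at 1e-04 either. Farther out, the Hoxc5 peak held a match at p 1.77e-05, 390 bp from its summit.

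At Hoxd the score was higher at each next site from group 11 to group 4. The peak between Hoxd11 and Hoxd10 at 74524429, in a UTR of Hoxd11, had a score of 100.70 and 25 CTCF against 3 IgG tags. The peak between Hoxd9 and Hoxd8 at 74540372 had a score of 154.68 and 33 against 3 tags. The peak between Hoxd8 and Hoxd4 at 74553946, in an intron of the annotated Hoxd3 record and an exon of the noncoding 1700109F18Rik, had a score of 271.95 and 42 against 2 tags. The exact intervals of the 3 tag ratios overlap, from 2.42 to 41.1 at the first and from 5.20 to 170 at the last. Hoxd genes of groups 10 to 13 pattern the digits and forearm, and the Hoxd8-Hoxd4 interval is the widest of the cluster, since groups 5 to 7 are missing from it.

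**Figure D2:**
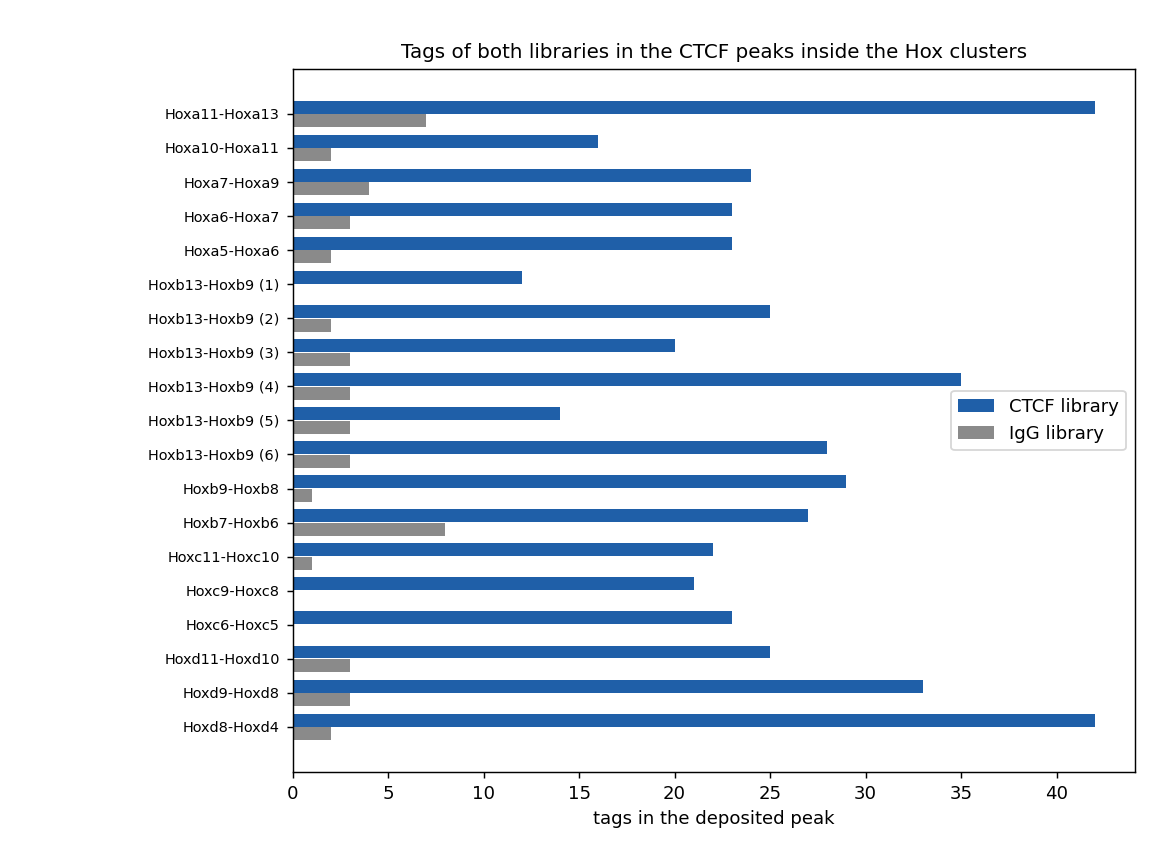
Tags in the 19 CTCF peaks inside the Hox clusters. The x axis counts tags in the deposited peak, blue bars are the CTCF library and grey bars the IgG library, and rows are named by the flanking genes, with numbers 1 to 6 for the sites between Hoxb13 and Hoxb9. CTCF tags run from 12 to 42 and IgG tags from 0 to 8, with no peak where the IgG bar reaches the CTCF bar.

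**Figure D3:**
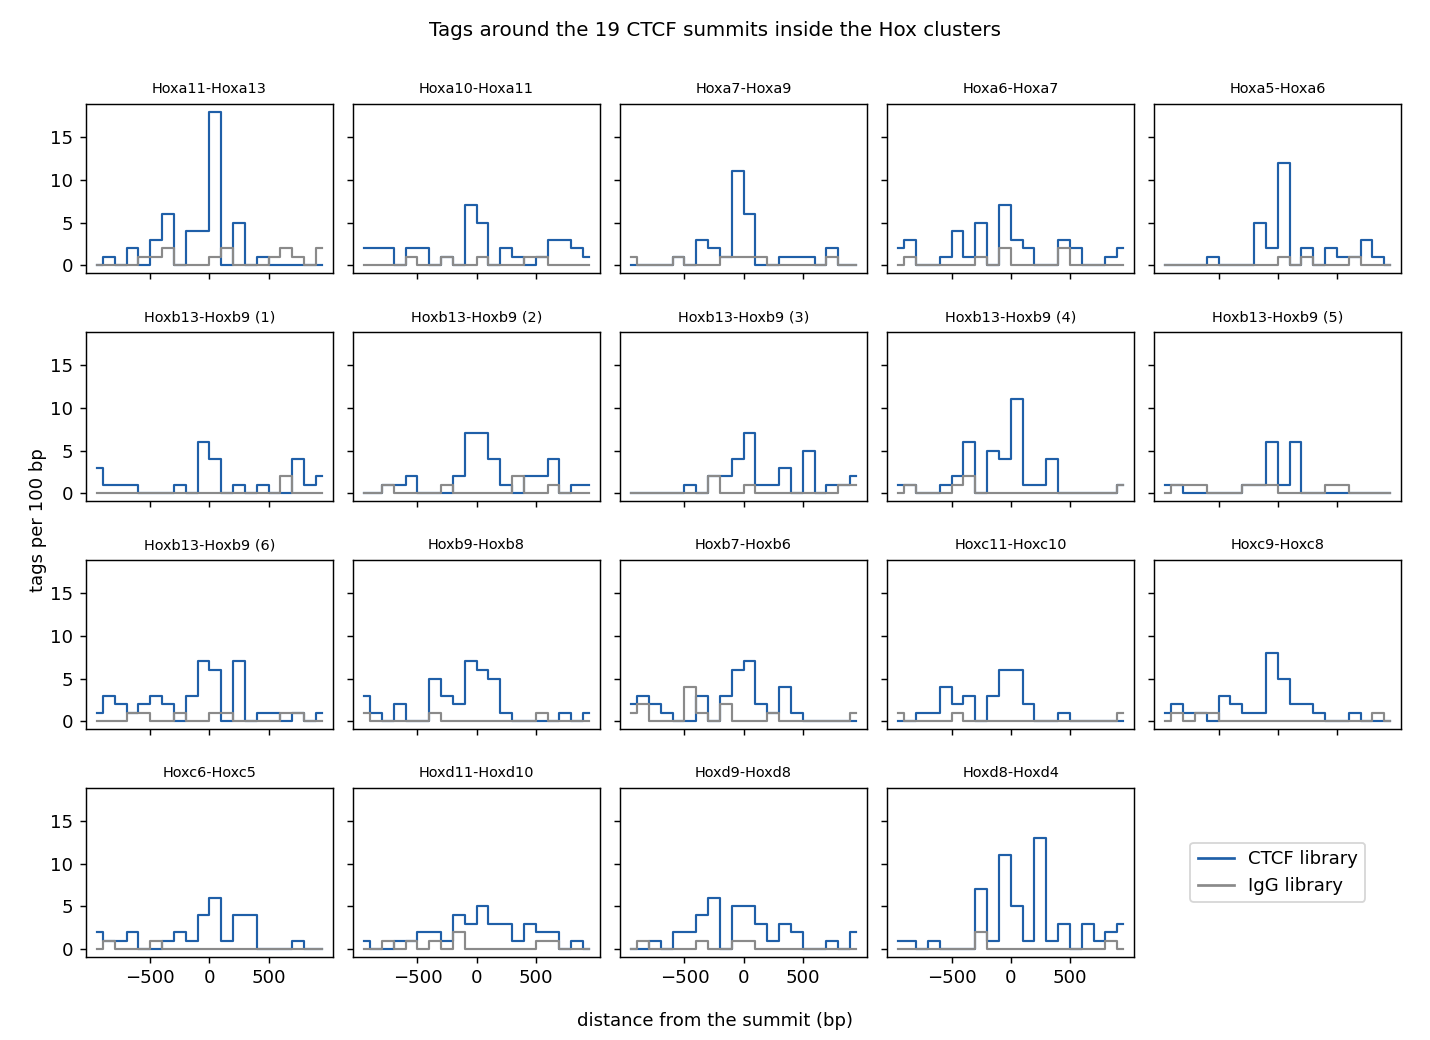
Tag profiles within 1 kb of the same 19 summits. The x axis is the distance from the summit in bp and the y axis the tags per 100 bp, with the CTCF library in blue and the IgG library in grey. Tags are concentrated at the summit in most panels, while the Hoxd8-Hoxd4 site shows separate maxima on both sides of it.

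Some of the sites recurred at the same paralogous positions. A summit lay between the group 9 gene and its next neighbour of lower group in all 4 clusters, at the Hoxa7-Hoxa9, Hoxb9-Hoxb8, Hoxc9-Hoxc8 and Hoxd9-Hoxd8 intervals, which measure 6.84, 8.11, 6.64 and 6.13 kb. Within 150 bp of these summits the CTCF library had 17, 16, 16 and 12 tags and the IgG library 3, 0, 0 and 2. A summit between groups 10 and 11 was present in Hoxa, Hoxc and Hoxd, that is, in every cluster that has both genes. A summit between groups 5 and 6 was present in Hoxa and Hoxc, and between groups 6 and 7 in Hoxa and Hoxb. Conversely, the intervals between groups 9 and 10 held no summit in Hoxa, Hoxc or Hoxd, nor did those between groups 11 and 12 or 12 and 13 in Hoxc and Hoxd. The Hoxa11-Hoxa13, Hoxb13-Hoxb9 and Hoxd8-Hoxd4 intervals also held summits but have no counterpart in another cluster. In total 14 of the 34 intervals between neighbouring coding spans held a summit. The positions were compared after the summits had been placed, and their recurrence was not tested.

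At all 4 sites beside the group 9 gene the motif pointed in the direction of Hox transcription. Their sequences, printed above, shared 10 to 12 of 19 bases between any pair of clusters, against a median of 11 over all 300 pairs of motifs in the regions. The motifs between groups 10 and 11 of Hoxa and Hoxd shared 14 of 19 bases and also pointed with transcription. The Hoxc site between groups 10 and 11 had a match only at the looser threshold, at p 6.13e-05. Among the 91 pairs of motifs inside the clusters the median was 10, and 8 pairs shared 14 bases or more. Of all 14 motifs inside the clusters, 8 pointed with transcription.

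A summit was missing between Hoxb5 and Hoxb6, but tags were not. This interval of 2.69 kb held 23 CTCF and 4 IgG tags, a ratio of 5.47 (exact 95% interval 1.87 to 21.8), which overlaps the ratios of the intervals with a summit at the same position, 4.22 (1.82 to 11.3) at Hoxa5-Hoxa6 and 4.92 (2.02 to 14.4) at Hoxc5-Hoxc6. Its densest 300 bp, in the UTR of Hoxb5 from 96164387 to 96164686, held 10 CTCF and 0 IgG tags around a motif at p 4.60e-06. This motif, shown because it lies at the Hoxb position that matches the Hoxa5 site, is printed with the same use of capitals.
Hoxb5, below the peak threshold: TcGCCgggAGGtGGCgCgc
It pointed with Hox transcription, as did the Hoxa5 motif. The interval was singled out after its tags had been seen.

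**Figure D4:**
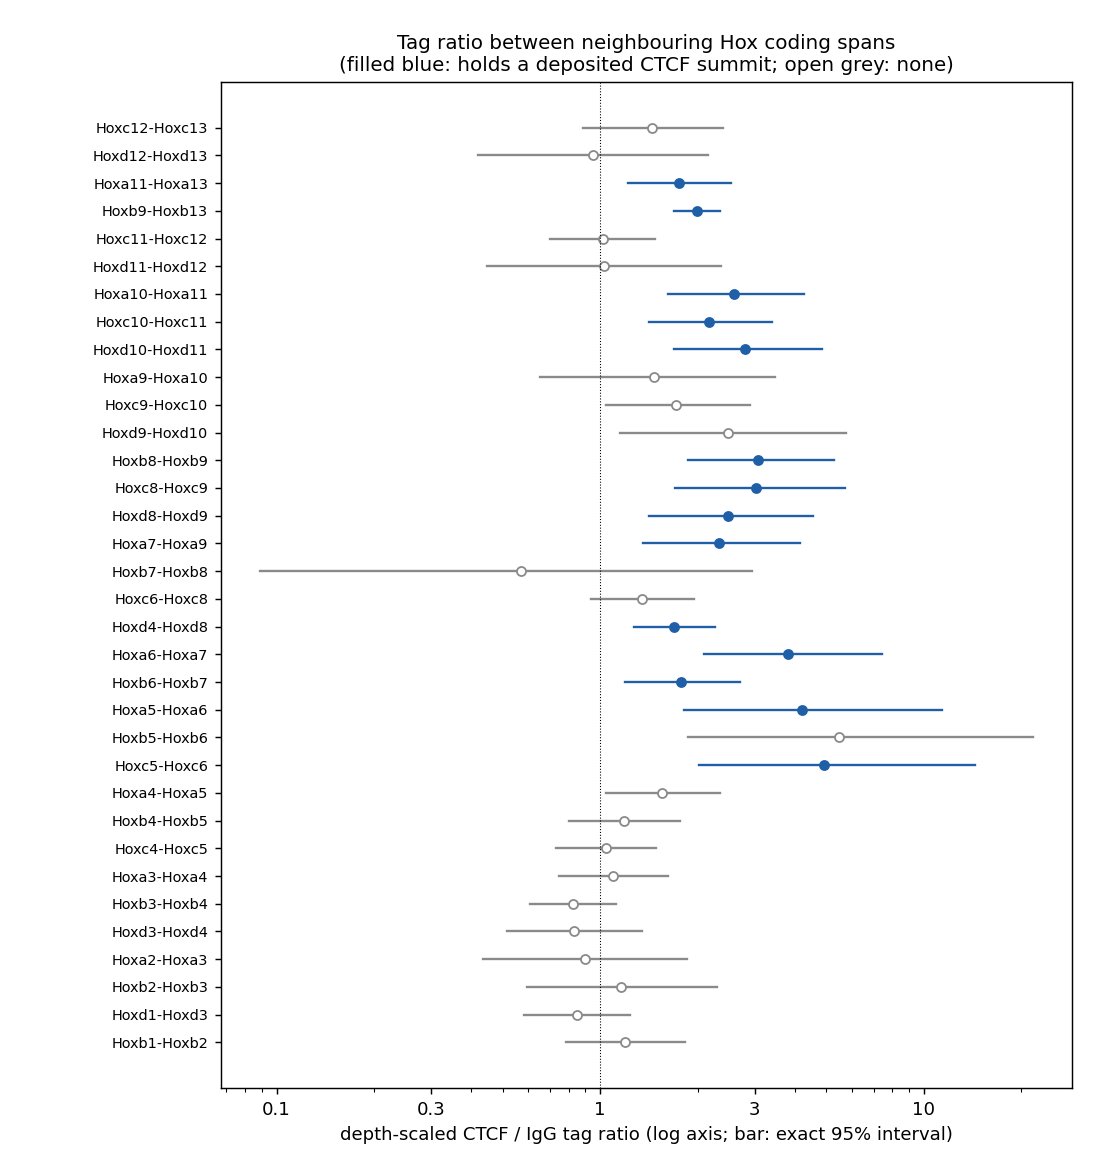
Depth-scaled CTCF over IgG tag ratio in each of the 34 intervals between neighbouring Hox coding spans, ordered from group 13 at the top to group 1 at the bottom. The x axis is logarithmic, bars are exact 95% intervals for counting error, filled blue points hold a deposited summit and open grey points hold none. Hoxb5-Hoxb6 has the highest ratio, 5.47, without a summit, and the intervals from Hoxa3-Hoxa4 down lie around 1.

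No summit was found between the coding spans of the genes of groups 1 to 4, although the Hoxa3 and Hoxd3 records reach upstream across sites described above. The 7 intervals whose upper gene is of group 4 or lower span 96.0 kb and held 0 summits, with 327 CTCF and 330 IgG tags, a ratio of 0.943 (exact 95% interval 0.807 to 1.10). The 27 intervals with an upper gene of group 5 or higher span 307.8 kb and held 19 summits, with 1818 CTCF and 942 IgG tags, a ratio of 1.84 (1.70 to 1.99). The 95% intervals of the 2 ratios do not overlap, but the split was drawn after the summits had been placed and carries no test. The densest 300 bp held 8 CTCF tags among the former and 26 among the latter. Coding spans are not part of these intervals, and 300 bp in a coding exon of Hoxb3 held 11 CTCF and 0 IgG tags.
From the last summit inside, the part of the cluster without a summit measured 42.2 kb in Hoxa, 73.6 kb in Hoxb, 23.5 kb in Hoxc and 49.3 kb in Hoxd. Counted on to the next summit beyond the cluster, the stretch was 150.1, 113.3, 79.3 and 248.6 kb. The genes of groups 1 to 4 in these stretches pattern the hindbrain and are the first to respond to retinoic acid.

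Motif direction was counted relative to Hox transcription. Of the 19 summits inside, 14 had a motif at p 1e-05 within 150 bp, 73.7% (95% Wilson interval 51.2 to 88.2), against 73.6% of all peaks and 5.90% at control positions 2000 bp from the summits. In Hoxa 3 motifs pointed with and 1 against transcription, in Hoxb 1 with and 5 against, in Hoxc 1 with and 0 against, and in Hoxd 3 with and 0 against. The sum was 8 with and 6 against, and a difference between clusters was not tested. In Hoxa and Hoxd the motifs at the group 13 end faced away from those farther in, at Hoxa11-Hoxa13 and at the site 2452 bp upstream of Evx2. Of the 21 neighbouring pairs of motifs in the regions, 13 had the same direction, 5 were divergent and 3 convergent. The convergent pair inside a cluster lay 15.7 kb apart, at Hoxb9-Hoxb8 and Hoxb7-Hoxb6, and enclosed the coding spans of Hoxb8 and Hoxb7.

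Most matches to the motif in the clusters were away from any summit, that is, more than 150 bp from it. A match counted as away can still lie within a peak, as does the one 243 bp from the Hoxb summit at 96096182. At p 1e-05 there were 50 such matches inside the clusters, with 82 CTCF and 27 IgG tags within 150 bp and a median of 1 CTCF tag each. The 14 at summits had 216 and 11 tags and a median of 15.5, and the groups overlapped, with 0 to 10 CTCF tags away from summits and 9 to 26 at them. The summits were called on the same tags, so their higher counts restate the calls and carry no test. A CpG, the site of DNA methylation, was in 11 of the 14 motifs at summits and in 13 of the 50 away. Several of those away, between Hoxb13 and Hoxb9, had near-identical sequences without a CpG, so the 50 are not independent sequences. Methylation was not measured, and the difference in CpG was not tested. The match with the most tags away from a summit lay in a coding exon of Hoxb3, on the minus strand of chromosome 11 from 96207505 to 96207523, with 10 CTCF and 0 IgG tags. Its sequence follows, as an example of a close match that was not called a peak.
Hoxb3, below the peak threshold: gGGCCggCAGGGGGCggcA
The densest 300 bp outside peaks in Hoxb, with 15 CTCF and 2 IgG tags, was 4914 bp upstream of Hoxb4 and had no match to the motif.

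Hox gene starts were compared with all gene starts. In the 1 kb on either side of the start, 4 of 38 Hox genes passed the exact binomial test, adjusted over all gene starts, with CTCF tags above IgG tags, as did 9.86% of all 22228 protein-coding starts. A deposited summit lay within 1 kb of 3 of the 38, where 7.79% of all starts had one. With the record starts 7 of 38 passed, against 10.1% of all, and within 5 kb 18 of 38 had a summit, against 23.9% of all. Hox starts lie close together and some share the same summit, as Hoxa3 and Hoxa6 do, so these 18 starts are not independent. The median over the 38 genes was 5.5 CTCF and 3.5 IgG tags, with a median ratio of 1.43, and over all genes 7 and 5 tags with a median ratio of 1.43.

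The 4 genes were Hoxa5, Hoxb5, Hoxc5 and Hoxc10. All 3 genes of group 5 were among them, which was seen after the calls and was not tested. It depends on the start used, since at the record starts Hoxa6, Hoxa7 and Hoxa10 passed as well, with 35, 29 and 36 CTCF tags. Hoxa5, which acts in lung and rib cage formation, had 30 CTCF and 3 IgG tags (adjusted p = 7.0e-05, exact binomial test). In the same exact test, Hoxc5 had 27 and 1 tags (adjusted p = 1.5e-05) and Hoxc10 30 and 3 (adjusted p = 7.0e-05). Hoxb5 had 20 and 3 tags (adjusted p = 0.0082, exact test) with the nearest deposited summit 7905 bp away. The other 34 starts had 1 to 16 CTCF and 1 to 9 IgG tags. Among them Hoxa3 had 16 against 4 (adjusted p = 0.0995), and Hoxb2 had 1 against 9 (adjusted p = 0.086, same exact test). The 11 genes of groups 1 to 4 had 77 CTCF and 58 IgG tags in sum, a ratio of 1.26 (exact 95% interval 0.887 to 1.81), and the 27 genes of groups 5 to 13 had 226 and 103, a ratio of 2.09 (1.65 to 2.66). Without the 4 genes above, the other 23 of groups 5 to 13 had 119 and 93, a ratio of 1.22 (0.921 to 1.62). Those 4 were called on the same tags, so leaving them out had to lower the ratio. The split into groups was also drawn after the values had been seen, and the difference was not tested.

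**Figure D5:**
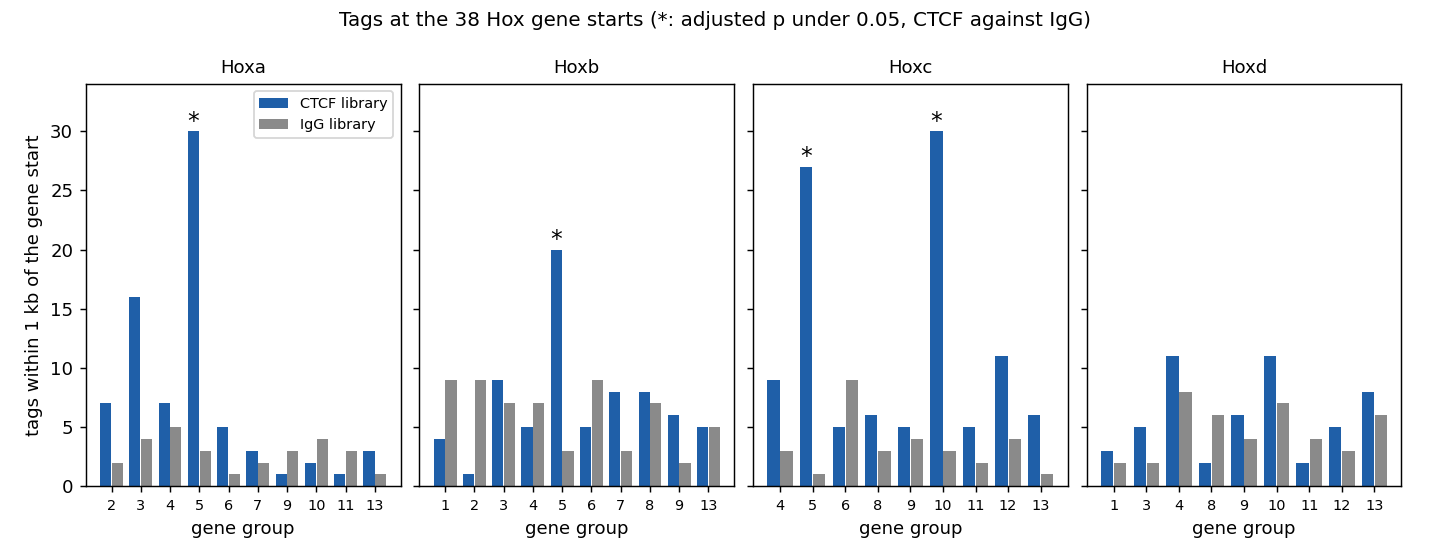
Tags within 1 kb of the 38 Hox gene starts, by cluster and paralogous group on the x axis. Blue bars are the CTCF library, grey bars the IgG library, and asterisks mark the 4 genes with an adjusted p under 0.05. At these starts the group 5 genes of Hoxa, Hoxb and Hoxc stand above their neighbours at 30, 20 and 27 CTCF tags. At its record start, which is not drawn, Hoxa6 had 35.

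The IgG library was thinner in the clusters than around them. The IgG library had 2.99 tags per kb inside the clusters and 3.70 in their flanks, a ratio of 0.807 (exact 95% interval 0.758 to 0.860). The IgG ratio was below 1 in each cluster, from 0.740 to 0.937, and the interval reached 1 at Hoxb alone. The CTCF library without its peaks had a ratio of 0.966 (0.913 to 1.02), and 0.936 (0.881 to 0.994) with 1 kb around the peaks also left out. Without the peaks Hoxb had 0.801 (0.728 to 0.882), and Hoxa, Hoxc and Hoxd had 0.990, 1.04 and 1.04, with intervals that include 1. The clusters had 48.9 to 50.0% G and C and their flanks 40.5 to 46.3%, and the part of base composition in these densities was not tested.

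The flanks differed in number of sites from cluster to cluster. The Hoxb13 side of Hoxb held 7 summits around Ttll6 and Calcoco2, and the tallest of all regions was there, 25 tags at 95988530, 6570 bp upstream of Ttll6, with 40 CTCF and 0 IgG tags. Behind it came 18 tags each at 95972499, in an intron of Calcoco2, and at 96007200, in an intron of Ttll6. The Hoxb1 side held 3 summits, the taller of them 21 tags at 96300220 and 15 tags at 96273461. On the Hoxc4 side were 2 summits, at 102923000 with 11 tags and at 102961525 with 18 tags and the highest score of the regions, 308.75.
The Hoxd13 side held 2 summits at 74500066 and 74501703, 2452 and 4089 bp upstream of Evx2, a homeobox gene next to the cluster, with heights of 10 and 13 tags. Beyond them lay 356.1 kb without a summit, the longest such stretch touching any of the regions. Hoxa had 1 flank summit, 13 tags high and 9820 bp beyond Hoxa13, while the flank of Hoxc beyond Hoxc13 and those of Hoxa and Hoxd at the low group end had none.

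Genes that work with the Hox proteins were compared at their starts. The list held the TALE cofactors of the Pbx, Meis and Pknox families, which bind DNA together with Hox proteins, the Cdx and Evx genes and the ParaHox genes Gsx1, Gsx2 and Pdx1. Of these 17 genes 1 passed the test, Pknox2 with 20 against 3 tags (adjusted p = 0.0082, exact binomial test), and 1 had a summit within 1 kb, Meis3 at 344 bp. Over all starts these shares were 9.86% and 7.79%. Evx2, next to Hoxd13, had 13 against 4 tags (adjusted p = 0.27, exact test).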

How the data were processed

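CTCF ChIP-seq of R1/E ESCs was analysed from 2 libraries, the GFP-antibody ChIP and the IgG control. The authors deposited 1 line per aligned tag, each a count of 1, and for CTCF the MACS 1.4beta calls against IgG. Each deposited peak has a score (the p-value as -10 log10) and each deposited summit a signal, its pileup height in tags. The aligner is not given in the sources used here.

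The fragment length was estimated as 187 bp at the 1000 highest scoring peaks, each tag was shifted 93 bp, and libraries were scaled by size (1.05). Depth was 8391191 CTCF and 7988889 IgG tags. Computation used scipy 1.17.1, numpy 2.4.6, matplotlib 3.10.9 and pandas 2.3.3 in Python 3.11.15, and scripts were tested on simulated data. Gene starts were those of the transcript with the longest coding sequence in GENCODE M1 on NCBI m37 (mm9). Tags within 1000 bp on either side of each start were tested by two-sided exact binomial tests with Benjamini-Hochberg adjustment over all genes. The CTCF matrix came from 192 sequences of the supplementary motif list, which was held only in part, so every motif p rests on those sequences, with a pseudocount of 1, a background of 0.21 per G or C and 0.29 per A or T, an exact p of at most 1e-05 and a window of 150 bp around the summit. Sequences were read from NCBI m37.

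The members, the lists and the tests were chosen with earlier results of these data known. By rule, all 38 genes and all peaks inside the clusters were given, with the 2 highest flank summits per cluster and side, and at most 5 related genes with a summit within 1 kb. Pknox2, Evx2, the Hoxb5-Hoxb6 interval, the windows outside peaks, the paralogous positions compared and the split at group 4 were chosen after their values had been seen. Other Hox genes are not reported here. Alternatives varied the gene start, the flank, the scaling, the score threshold and the windows, and the motif p.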

Additional observations from a re-analysis of the deposited data

How the results depend on the processing

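Of 23 alternative settings over 10 results, 18 left the value within the spread set for it and 5 moved it. The tag ratio of the peaks in the Hox regions was 16.9 within 150 bp of the summits, in place of 9.87 in whole peaks. With the start of the gene record, 7 of 38 Hox starts passed the test with CTCF above IgG, in place of 4, as did 10.1% of all starts. The added ones are Hoxa6, Hoxa7 and Hoxa10. Within 5 kb, 18 of 38 starts had a summit, some of them the same one, in place of 3, where 23.9% of all did. A motif within 50 bp was found at 38.2% of summits (95% Wilson interval 23.9 to 55.0), in place of 73.5% within 150 bp. At p 1e-06, 9 motifs in the clusters were away from summits, in place of 50. With the first coding base as the start, chosen after seeing the data, 4 starts were called and 3 had a summit. No paired analysis was possible because neither antibody has more than 1 library. With about 12 tags at a typical summit, sites of low height can fall on either side of the threshold, and absence of a peak is absence at this depth. Variation between cultures was not measured.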
